A study of Caenorhabditis elegans with 2 samples.

Results

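Chemoreceptor genes of Caenorhabditis elegans are described here by the HMG-4 peaks at their 5' ends in early embryos. The genes were chosen by name: protein-coding genes of the Ensembl annotation of WBcel235 (the same assembly as ce11) called sr followed by 1 or 2 lower-case letters and a number, or str and a number. This gave 1364 of 19973 protein-coding genes. Of these, 1311 belong to 24 families of seven-transmembrane chemoreceptors, and 1306 of the 1311 (99.6%) have a RefSeq product name that calls them a receptor. The other 53 match the pattern but lie outside these families and are kept apart below, including srsy-1 and srsy-2, whose RefSeq products name a G protein-coupled receptor domain. A gene was scored when a peak summit lay within 500 bp of its 5' end, and a single summit could score several genes. The comparison set is the 18609 other protein-coding genes.

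The peaks come from chromatin immunoprecipitation followed by sequencing of mixed-sex early embryos, taken at 0 hours by bleaching of eggs, with an antibody against green fluorescent protein. The strain, OP660, carries unc-119(tm4063) and the transgene wgIs660, in which hmg-4 is joined to the tags TY1, EGFP and 3xFLAG and which also holds unc-119(+). HMG-4 bears these tags at its C-terminal end, and the labels do not name the promoter that drives it. There was 1 group of 2 biological replicates, both of this strain, with no group to set against it. The authors deposited a peak list per replicate, a list called on the pooled replicates (30000 peaks each), and a list of 2137 peaks selected by the irreproducible discovery rate (IDR), which were the 2137 strongest pooled peaks. Depth is unknown, because the lists hold no read numbers. The lists of 30000 reach down to weak entries: 3049 of the pooled peaks have a −log10 q-value of 2 or more, against all 2137 IDR peaks. Whole embryos were used, so recovery in a few cells and weak recovery in every cell cannot be told apart. No test of a difference between gene groups was made, since members are genes and not replicates. Intervals are exact (Clopper-Pearson) binomial intervals at 95%, which cover counting error over genes only, and neighbouring genes are not independent of each other.

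HMG-4 is a worm homolog of SSRP1, a subunit of the histone chaperone FACT, which accompanies RNA polymerase through nucleosomes. Nematode chemoreceptors are G protein-coupled receptors that sit in the sensory cilia of head and tail neurons, where they bind odorants, tastants and pheromones and signal through G proteins to cyclic-nucleotide-gated or TRPV channels. Their genes fall into the Str superfamily (srd, srh, sri, srj, srm, srn, str), the Sra superfamily (sra, srab, srb, sre), the Srg superfamily (srg, srt, sru, srv, srx, srxa) and families that stand alone (srbc, srr, srsx, srw, srz). Many lie in tandem arrays, above all on chromosome V, and most of those studied are switched on in one or a few sensory neurons after these neurons are born.

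The 4 sequences that follow are places on chromosome V where an IDR summit fell in a receptor window. They are shown because the neighbouring genes and the base composition at these places differ from case to case. They were read from the RefSeq genome of WBcel235 and run 5' to 3'. The srh-269 sequence runs from the start of a tRNA gene to the base before the 5' end of srh-269 (chrV:16592043-16592308, − strand). Those of str-12 (chrV:15610424-15610624, + strand), srh-34 (chrV:446991-447191, − strand) and srw-85 (chrV:19430539-19430739, − strand) are the summit with 100 bp on each side, on the receptor's strand. Capitals mark the 72 bases of the tRNA gene in the srh-269 sequence, and the summit with 10 bases on each side in the other 3.
srh-269: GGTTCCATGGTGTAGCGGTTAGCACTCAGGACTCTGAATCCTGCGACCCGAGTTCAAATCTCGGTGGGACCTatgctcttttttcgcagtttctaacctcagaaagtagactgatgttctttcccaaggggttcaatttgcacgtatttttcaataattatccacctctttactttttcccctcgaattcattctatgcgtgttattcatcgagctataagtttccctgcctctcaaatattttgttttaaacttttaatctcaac
str-12: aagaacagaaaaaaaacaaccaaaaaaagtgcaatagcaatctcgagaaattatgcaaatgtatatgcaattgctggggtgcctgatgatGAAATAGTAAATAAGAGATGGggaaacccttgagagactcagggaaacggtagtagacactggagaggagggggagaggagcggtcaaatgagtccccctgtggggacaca
srh-34: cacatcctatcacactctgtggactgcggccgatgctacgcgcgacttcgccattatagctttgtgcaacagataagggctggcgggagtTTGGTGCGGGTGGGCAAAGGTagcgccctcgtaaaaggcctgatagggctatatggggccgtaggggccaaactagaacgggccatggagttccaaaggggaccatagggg
srw-85: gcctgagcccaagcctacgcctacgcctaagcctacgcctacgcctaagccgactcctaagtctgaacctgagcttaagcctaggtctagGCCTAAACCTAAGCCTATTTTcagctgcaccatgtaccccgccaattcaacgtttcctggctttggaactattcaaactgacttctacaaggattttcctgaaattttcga

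These 4 sequences differ in composition. In the 201-bp summit windows, G and C make up 57.7% of the srh-34 window, 49.3% of the srw-85 window and 44.3% of the str-12 window. The window of the same width around the srh-269 summit has 49.3%, and the longer stretch printed for srh-269 has 40.6%. The median over the same 201-bp window of all 2137 IDR summits was 48.8%. The srh-34 window is among the 6.6% of IDR windows with the highest GC content. The srw-85 window holds the hexamer TTAGGC, the unit of worm telomere repeats, 3 times, counting both strands, and 2 of the 2137 IDR windows (0.0936%) hold it 3 times or more, whereas 98 (4.59%) hold it at all. The srw-85 window starts in the intron between coding exons 1 and 2, which holds the summit, and runs into coding exon 2. Of the 171 stretches of 31 bases in each summit window, 46 of those at srh-269 and 23 of those at srw-85 occur again elsewhere in the genome, and none of those at the other 4 receptor IDR summits do. How reads from such repeated stretches were placed is not given in the sources used here.

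Few chemoreceptor gene starts carried a peak. Of the 1311 receptor genes, 6 (0.458%, interval 0.168 to 0.993) had an IDR summit within 500 bp, against 866 of 18609 other protein-coding genes (4.65%) and 4.38% of all protein-coding genes. All names that match the pattern gave 8 of 1364 (0.587%). In the pooled list 74 receptors had a summit (5.64%, interval 4.46 to 7.03), against 5810 other genes (31.2%) and a background of 29.5%. Replicate 1's own list reached 80 receptors (6.1%, interval 4.87 to 7.54), against 5539 other genes (29.8%) and a background of 28.2%. Replicate 2's reached 112 receptors (8.54%, interval 7.09 to 10.2), against 6175 other genes (33.2%) and a background of 31.5%. Summits in both replicates' lists were present at 32 receptors (2.44%, interval 1.68 to 3.43), against 3496 other genes (18.8%) and a background of 17.7%. The receptor share was thus 0.0983 times that of other genes in the IDR list, 0.181 times in the pooled list, 0.205 times in replicate 1, 0.257 times in replicate 2 and 0.13 times in both. In every list the receptor share was below the background, and its interval did not reach the share of other genes. The lists do not show that the remaining receptors lack HMG-4, since a site below the weakest listed peak is not in them.

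**Figure D1:**
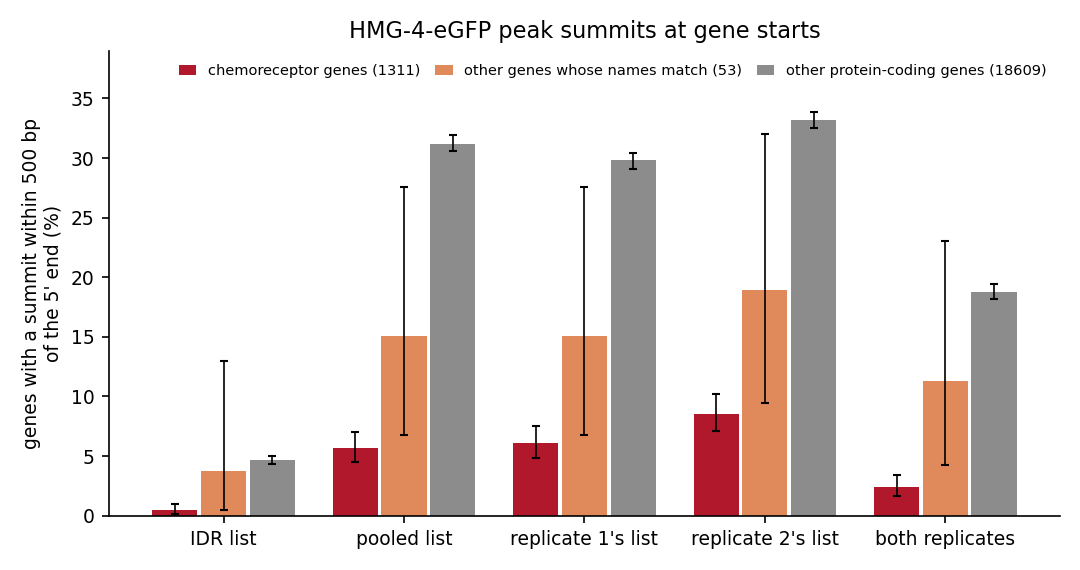
Percentage of genes whose 500-bp window holds a summit, in each peak list, for 1311 chemoreceptor genes (red), 53 other genes whose names match the pattern (orange) and 18609 other protein-coding genes (grey). Lines are exact 95% binomial intervals. The red bar is the lowest of the 3 in every list, from 0.458% in the IDR list to 8.54% in replicate 2's list.

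The receptor share was the lower one at every list length taken. None of the 100 strongest pooled peaks lay at a receptor start, against 34 other genes with such a summit (0.183%). The 300 strongest gave 1 receptor (0.0763%) and 101 other genes (0.543%), and the 1000 strongest 3 (0.229%) and 397 (2.13%). Counts of 0 and 1 receptor are too small to size the gap at the shortest lists. The 5000 strongest gave 9 receptors (0.686%) and 1693 other genes (9.1%), and the 10000 strongest 21 (1.6%) and 2777 (14.9%). The receptor share relative to that of other genes was 0.0755 at 5000 peaks and 0.181 at 30000, so the receptors gained proportionally more from the weak end of the list. The receptor peaks were weak within it. The strongest pooled summit of each of the 74 receptors had signal values between 38.5 and 320 with a median of 53.9, against a median of 69.5 for other genes with a summit and 59.5 for the whole list. A −log10 q-value of 2 or more was listed for 7 of the 74 (9.46%), against 20.2% of other genes with a summit. In replicate 1 the receptor median was 33.7, against 40.8 at other genes, and in replicate 2 it was 28.1, against 35.5.

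**Figure D2:**
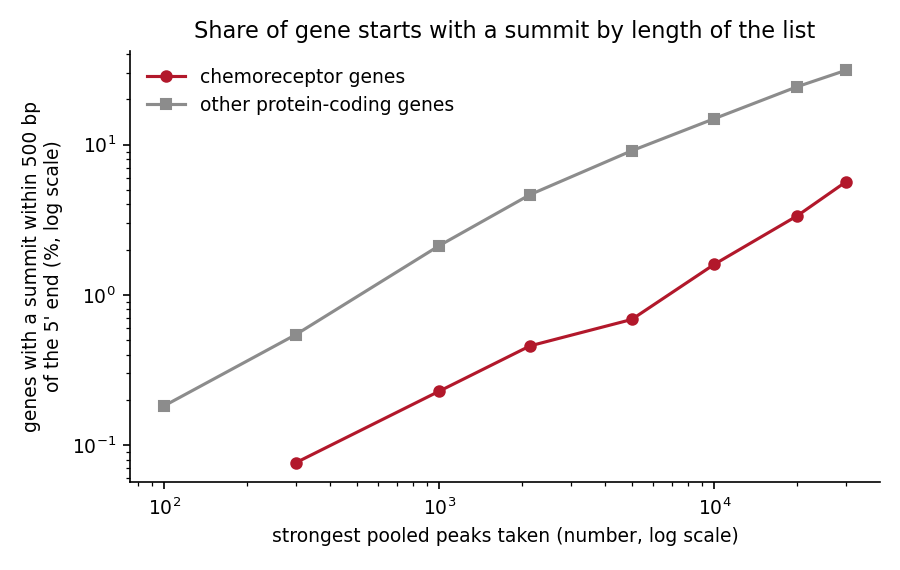
Percentage of chemoreceptor genes (red circles) and of other protein-coding genes (grey squares) with a pooled summit within 500 bp of the 5' end, as more of the strongest pooled peaks are taken; both axes are logarithmic. The red line stays below the grey one throughout, and it has no point at 100 peaks, where the receptor count is 0.

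Summits were sparsest right at the receptor 5' end in the pooled list. In each 100 bp out to 2000 bp on both sides, receptors had between 2.29 and 15.3 pooled summits per 1000 genes, with the lowest values in the 100 bp on either side of the 5' end (2.29 each) and the highest inside the gene, between +500 and +599. Other protein-coding genes had at least 26.5 in every 100 bp and their highest density, 47.3, just upstream of the 5' end, between −200 and −101. Of 80 receptor-summit pairs within 500 bp in the pooled list, 6 (7.5%) lay within 100 bp of the 5' end, against 22.3% of 7108 pairs at other genes. The dip was not seen in both replicates. In replicate 1, 5 of 90 receptor pairs (5.56%) lay within 100 bp, against 21.8% at other genes. In replicate 2, 28 of 124 receptor pairs did (22.6%), against 22.2% at other genes. The receptor summits within 100 bp were weak in both replicates. Their median signal was 29 in replicate 1, whose list ends at 21.6. It was 26 in replicate 2, whose list ends at 21.8. Base composition also changed along the receptor start. Receptors held 32.6% GC in the 100 bp upstream of the 5' end, against 33.2% at other genes. In the 100 bp from the 5' end they held 35.7%, against 39.9%, and between +700 and +799 35.1%, against 36.4%. Base composition differed between the replicates' lists as well. Their summit windows of 201 bp had a median GC content of 44.8% in replicate 1 and 40.8% in replicate 2. The part of base composition in the profiles was not tested.

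**Figure D3:**
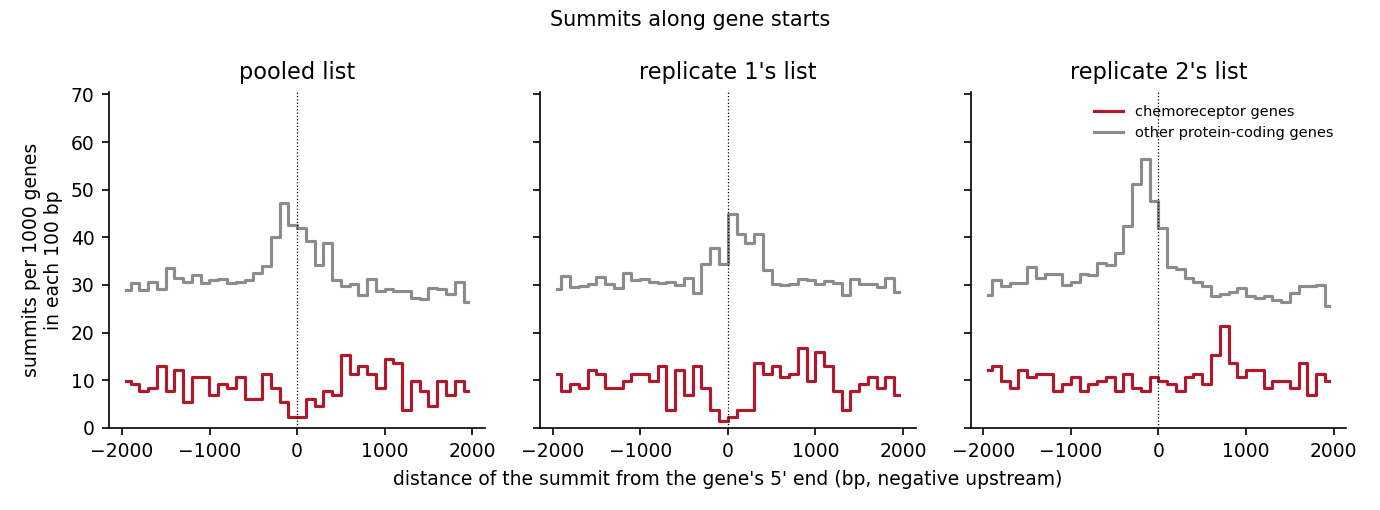
Number of summits per 1000 genes in each 100 bp from 2000 bp upstream to 2000 bp downstream of the 5' end (dotted line), for chemoreceptor genes (red) and other protein-coding genes (grey), in the pooled list and in each replicate's list. The grey lines peak at the gene start, whereas the red lines dip there in the pooled list and in replicate 1 (down to 2.29 and 1.53) and not in replicate 2.

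The window size changed the counts and not the order. Within 200 bp of the 5' end, 21 receptors (1.6%) had a pooled summit, against 15.9% of other genes, and 1 receptor (0.0763%) had an IDR summit, against 2.33%. Within 1000 bp, 160 receptors (12.2%) had a pooled summit, against 43.6%. Within 2000 bp, 246 (18.8%) did, against 55.5%, and 15 receptors (1.14%) had an IDR summit, against 9.86%. The bodies of receptor genes were poor in peaks as well: 170 receptors (13%) held a pooled summit anywhere between their ends, against 42.6% of other genes. Per megabase of gene body this was 103 summits in receptors and 342 in other genes, with 299 over the genome. The median distance from a receptor's 5' end to the nearest pooled summit was 9681 bp, against 1428 bp for other genes. For IDR summits the medians were 59364 bp for receptors and 22327 bp for other genes.

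The replicates' lists shared fewer than 50% of their receptors. Of the 80 receptors with a summit in replicate 1, 32 (40%) also had one in replicate 2, and these are 28.6% of the 112 of replicate 2. At other genes the shared ones were 63.1% of those of replicate 1 and 56.6% of those of replicate 2. These percentages also depend on how many genes a list reaches. Replicate 1 reached 6.1% of receptors and 29.8% of other genes, and replicate 2 reached 8.54% and 33.2%. They therefore do not rank the 2 sets by how well the replicates agree. Of the 74 receptors with a pooled summit, 30 had one in both replicates, 39 in a single replicate and 5 in neither. A further 91 receptors had a summit in a replicate's list but not in the pooled list. No list put a summit at 1146 receptors, which leaves 165 with a summit in at least 1 of the lists. Of the 18609 other genes, 10143 had no summit in any list and 8466 had one in at least 1. Of the 5810 other genes with a pooled summit, 3370 had one in both replicates, 2192 in a single replicate and 248 in neither. A further 2656 had one in a replicate's list only.

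Of the 6 receptors with an IDR summit, sri-5, of the sri family of the Str superfamily, had the strongest. Its pooled signal value was 320 (rank 251), with 157 in replicate 1 and 159 in replicate 2. The summit lay 233 bp upstream of the 5' end on chromosome I (peak 11182342 to 11182781), in the stretch between sri-5 and the divergently transcribed rsr-1, which encodes an SR-related splicing protein. It was 499 bp upstream of the 5' end of rsr-1, so it lay nearer to the receptor. The 5' ends of these genes are 732 bp apart.

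The second, srh-16, had a pooled signal value of 226, with 127 in replicate 1 and 95.7 in replicate 2. Its summit lay 79 bp upstream of the 5' end, and another gene's 5' end was farther from it. It was the only receptor IDR summit within 200 bp of a receptor's 5' end.

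At srh-269 the summit lay inside a tRNA gene. The pooled signal value was 214, with 115 in replicate 1 and 91.8 in replicate 2. The summit, upstream of the receptor, fell 32 bp into T03E6.t1, a tRNA-Gln gene (chromosome V, 16592237 to 16592308) on the same strand, and inside T03E6.13, an ncRNA gene on the opposite strand. At str-12 the pooled value was 140, with 58.6 in replicate 1 and 77.2 in replicate 2, and the summit lay 366 bp upstream. The 5' end of fbxa-153, a gene of the F-box family fbxa, was nearer, with the summit 140 bp upstream of it on the other strand.

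The other 2 had no other gene's 5' end within 500 bp of the summit. The srh-34 peak had a pooled value of 145, with 96.4 in replicate 1 and 48.8 in replicate 2 and its summit 417 bp upstream, and it was ranked 1042 in replicate 1 and 4506 in replicate 2. The srw-85 peak had a pooled value of 148, with 103 in replicate 1 and 56.9 in replicate 2. Its pooled summit lay 497 bp downstream of the 5' end, within 3 bp of the edge of the window, and replicate 2's summit lay at +653, outside it. Its rank was 907 in replicate 1 and 2956 in replicate 2. At sri-5 the ranks were closer, 326 in replicate 1 and 228 in replicate 2, as they were at srh-16 (549 and 809) and srh-269 (692 and 905). Those of str-12 were far apart as well, 4123 in replicate 1 and 1390 in replicate 2.

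Below the IDR limit of 130, the next receptor was srz-97, of the solo srz family, with 118 in the pooled list, 32.4 in replicate 2 and no overlapping peak in replicate 1. Its summit lay inside F08H9.11, an snRNA gene, and F08H9.13, an ncRNA gene on the opposite strand, 356 bp upstream of the receptor. The other 9 of the next 10 receptors by pooled signal had no other gene's 5' end within 500 bp. They were srw-48 (106), sri-71 (92.9), srz-6 (90.5), srh-170 (88.8), srh-300 (86.9), srh-171 (83.1), sri-38 (82.3), sre-42 (79.6) and srbc-58 (79.4), and the summit of srbc-58 lay inside sti-1, which encodes an Hsp90 co-chaperone. Each had an overlapping peak in both replicates, between 38.7 and 62.6 in replicate 1 and between 24.5 and 46.2 in replicate 2. Of these 9, 7 had the summit upstream of the 5' end, at distances of 285 to 487 bp, and in srh-300 and srh-171 it lay 223 and 287 bp downstream.

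The strongest receptor peak present in a single replicate was that of srd-44, on chromosome X. It had a signal value of 102 in replicate 2 (rank 695), and no peak of replicate 1 or of the pooled list overlapped it. Its summit lay 406 bp upstream of srd-44 and 36 bp inside F17A2.t1, a tRNA-Arg gene. In replicate 2 srd-44 stood among the 5 strongest matching names, as did sri-5, srh-16 and srh-269.

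Neighbouring genes could own some of these peaks. A gene other than a receptor, a pseudogene or a piRNA gene had its 5' end within 500 bp of 49 receptors. Of these 49, 8 (16.3%, interval 7.32 to 29.7) had a pooled summit and 2 an IDR summit, against 66 of the 1262 receptors without such a neighbour (5.23%, interval 4.07 to 6.61) and 4 with an IDR summit. With neighbours within 1000 bp, 17 of 149 receptors (11.4%) had a pooled summit, against 57 of 1162 without (4.91%), and 4 (2.68%) had an IDR summit, against 2 (0.172%). With protein-coding neighbours alone the pooled shares lay closer: 2 of 29 (6.9%) had a pooled summit, against 72 of 1282 without (5.62%). Within 1000 bp it was 8 of 103 (7.77%), against 66 of 1208 (5.46%). The IDR shares did not lay close, though they rest on few genes. An IDR summit was at 1 of the 29 (3.45%), against 5 of the 1282 (0.39%). Within 1000 bp it was at 3 of the 103 (2.91%), against 3 of the 1208 (0.248%). Read from the peaks, 61 of the 74 pooled receptor summits (82.4%) had no other gene's 5' end within 500 bp, and these had a median signal of 52.3. Some of them still lay inside the body of another gene, a receptor or not, as that of srbc-58 in sti-1 did. The 4 receptors whose summit lay within 500 bp of a tRNA, snoRNA, snRNA, microRNA or rRNA gene had a median of 88.3. Another 5 summits had a farther and 2 a nearer 5' end of another gene, and sre-32 and sre-38 shared a summit with each other. The median distance to the nearest other protein-coding 5' end was 2152 bp for receptors and 2129 bp for other genes, and the nearest gene was itself a receptor for 676 receptors (51.6%), against 3.33% of other genes.

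Families differed in how many members had a summit. In the pooled list the Str superfamily had 41 of 587 (6.98%, interval 5.06 to 9.36), the Sra superfamily 6 of 124 (4.84%), the Srg superfamily 13 of 309 (4.21%) and the solo families 14 of 289 (4.84%). Their intervals overlap. Of the 6 IDR receptors, 5 belong to the Str superfamily and srw-85 is of a solo family. The largest family, srh, had 23 of 220 (10.5%, interval 6.74 to 15.3), with 21 in replicate 1 and 34 in replicate 2. The sri family had 8 of 61 (13.1%, interval 5.84 to 24.2) and 8 in each replicate. The sre family had 6 of 54 (11.1%). The str family, the second largest, had 7 of 193 (3.63%, interval 1.47 to 7.33), srw had 4 of 109 (3.67%) and srx had 5 of 101 (4.95%). The share in replicate 1 and in replicate 2 went apart in srj, with 6 of 39 and 2 of 39, in srw, with 3 and 11, and in srr, with 0 and 4 of 9. No pooled summit was found at any member of sra (35), srv (30), srab (23), srxa (17), srb (12) or srm (6). Taking 3 genes over the family's size as the limit, which is not the exact interval used elsewhere, a count of 0 allows a share of up to 8.57% in sra, 10% in srv, 13% in srab, 17.6% in srxa, 25% in srb and 50% in srm. The single genes srn-1, sro-1 and srtx-1, and all members of srb, srxa and srm, had no summit in any of the lists.

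**Figure D4:**
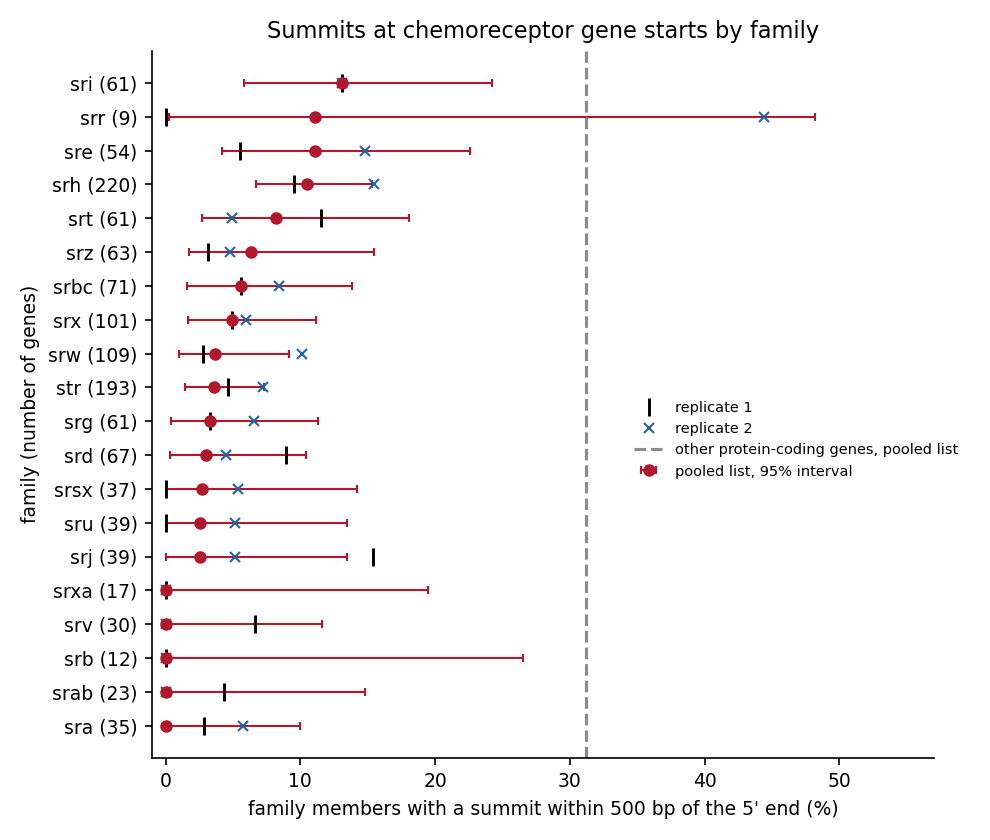
Percentage of each receptor family with a summit inside the 500-bp window, for families of 9 or more genes (number of genes in brackets), as red circles with exact 95% binomial intervals for the pooled list, black ticks for replicate 1 and blue crosses for replicate 2. The dashed line is the pooled share of other protein-coding genes, 31.2%, and every pooled family share lies below it, from 0% to 13.1%.

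Position in the genome went along with the counts. Chromosome V holds 890 of the 1311 receptors (67.9%), and 46 of them (5.17%) had a pooled summit, against 21.8% of the other genes of chromosome V. On chromosome II it was 24 of 170 (14.1%), against 34.5%, and on chromosome IV 2 of 153 (1.31%), against 26.2%. Chromosome I had 1 of 34 and chromosome III 1 of 31, and X had 0 of 33, for which the exact interval reaches 10.6%. The replicates differed on these chromosomes: replicate 1 had 1 of 34 on I, 3 of 31 on III and 1 of 33 on X, and replicate 2 had 5, 0 and 1 in the same order. The 5 IDR receptors on chromosome V are 0.562% of its receptors, against 2.69% of its other genes. In the outer 25% of chromosome length at each end, 69 of 809 receptors (8.53%, interval 6.7 to 10.7) had a pooled summit, against 39% of other genes there. In the centre it was 5 of 502 (0.996%, interval 0.324 to 2.31), against 25.2%. In the pooled list the ends exceeded the centre in both sets of genes. The IDR list did not show this: 3 of 809 receptors at the ends (0.371%) and 3 of 502 in the centre (0.598%) had a summit, against 4.65% of other genes in each. Replicate 2 had 23 receptors with a summit in the centre (4.58%) and replicate 1 had 4 (0.797%).

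**Figure D5:**
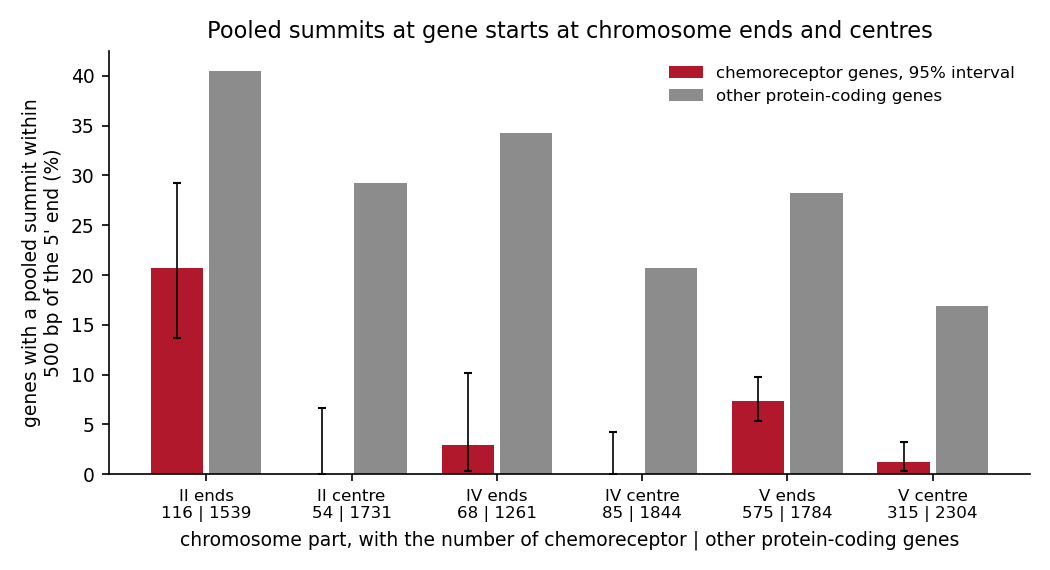
Percentage of chemoreceptor genes (red, with exact 95% binomial intervals) and of other protein-coding genes (grey) with a pooled summit within 500 bp of the 5' end, at the ends (outer 25% of length on each side) and in the centre of the 3 chromosomes with the most receptors. The red bars run from 0% in the centres of II and IV to 20.7% at the ends of II, and each is below its grey neighbour.

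The ends of chromosome II had the highest receptor share of these parts, 24 of 116 (20.7%, interval 13.7 to 29.2), against 40.5% of other genes there, while none of 54 receptors in its centre had a pooled summit. Within a family the share differed between places, as it did over all receptors and over other genes. At the ends of V, 7.3% of all receptors had a pooled summit, against 28.2% of other genes. In the centre of V it was 1.27%, against 16.9%. The counts per family and place are small. Of the sri genes, 7 of 31 at the ends of II had a pooled summit, against 0 of 14 at the ends of V. Of the srh genes it was 6 of 23 at the ends of II, 15 of 134 at the ends of V and 2 of 46 in the centre of V. All 6 pooled sre genes lie at the ends of II, which hold 28 of the 54 members. None of the 25 str genes in the centre of IV had a summit in any of the replicate or pooled lists. The same held for all 85 receptors there, where 20.7% of other genes had a pooled summit. Of 79 stretches of 1 Mb that hold a receptor, 21 held a receptor with a pooled summit, and the 6 stretches with the most of them held 44 of the 74 (59.5%), as well as 401 of all 1311 receptors (30.6%). The stretch from 12 to 13 Mb of chromosome II had 8 of 35 and that from 2 to 3 Mb of chromosome V had 9 of 99. Of the 36 stretches with 10 or more receptors, 21 had none with a pooled summit, and these hold 456 receptors.

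Base composition of the 300 bp from 250 bp upstream to 50 bp downstream of the 5' end went along with the counts. The median GC content was 37% in the 74 receptors with a pooled summit and 33% in the 1237 without. Other genes had a median of 36.3% with a pooled summit and 34.3% over all. Among starts of 25 to 30% GC, 4 of 207 receptors (1.93%) had a pooled summit, against 19.1% of other genes. At 30 to 35% it was 18 of 669 (2.69%), against 23.8%, at 35 to 40% 38 of 360 (10.6%), against 34.4%, and at 40 to 45% 12 of 62 (19.4%), against 48.8%. The receptor share was below that of other genes in each of these ranges, 0.101, 0.113, 0.307 and 0.397 times as high in order of rising GC content. The part of base composition in the shares was not tested.

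Some receptor promoters carry an E-box, a motif bound by basic helix-loop-helix factors. The letters CACCTG (either strand, in the same 300 bp) were found at 286 of 1311 receptors (21.8%), against 7.53% of other genes and 8.48% of all protein-coding genes. The motif was most frequent in srz (82.5%), sri (54.1%), sre (44.4%) and srh (40%), and it was at 0 of 39 srj and 1 of 71 srbc genes. Receptors with the motif had a pooled summit in 25 of 286 cases (8.74%, interval 5.74 to 12.6), against 49 of 1025 without it (4.78%, interval 3.56 to 6.27), and none of the 6 IDR receptors had it. Over srh, sri and sre together the shares were 17 of 145 with the motif (11.7%) and 20 of 190 without it (10.5%). In srz they were 4 of 52 with the motif (7.69%) and 0 of 11 without it, too few genes to compare. At other genes the shares were 30.4% with the motif and 31.3% without. GAGAGA was found at 10.5% of receptors, against 22.6% of other genes and 21.8% of all. CACGTG was at 5.42% of receptors, against 5.86% of other genes and 5.82% of all, TATAAA at 36.6%, against 38% and 37.9%, and TTTTTT at 79.6%, against 80.1% and 80.1%. No 2 of these 5 motifs are the same on either strand.

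Of 22 receptors with a role known from the literature, none had an IDR summit and srx-43 alone had a pooled one. Over all 1311 receptors the shares were 0.458% (IDR) and 5.64% (pooled), so these counts do not set the 22 apart. The srx-43 summit (signal value 52.6, and 29.8 in replicate 1) lay 442 bp downstream of the 5' end. SRX-43 senses an ascaroside pheromone. In replicate 1 srh-220 had a summit too (45.4), and in replicate 2 none of the 22 had any. The others include str-2, which is expressed in one of the AWC olfactory neurons, sra-6, a marker of the ASH and ASI neurons, and srg-36 and srg-37, receptors for dauer pheromone. The distance from the 5' end to the nearest pooled summit had a median of 9661 bp over the 22, close to the 9681 bp over all receptors. It ran from 442 to 62339 bp, the latter at srh-234.

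Genes that act with the receptors in sensory neurons were counted in 4 lists, and each list had a higher share with a pooled summit than the receptors, a difference that was not tested. Guanylyl cyclase genes (gcy genes, daf-11 and odr-1) had a pooled summit at 8 of 33 (24.2%, interval 11.1 to 42.3), with 8 in replicate 1 and 6 in replicate 2. Of these genes, 26 encode receptor guanylyl cyclases, the other large receptor family of these neurons, and 5 of the 26 had a pooled summit (19.2%, interval 6.55 to 39.4) and none an IDR summit. The other 7, gcy-31 to gcy-37, encode soluble cyclases, and 3 of them had a pooled summit, the strongest at gcy-33 (pooled signal 652), which shares its summit with a tRNA gene and the ncRNA gene F57F5.7. The strongest at a receptor cyclase was at gcy-17 (66.1). Genes of chemosensory transduction had 4 of 30 (13.3%, interval 3.76 to 30.7), with 6 in replicate 1 and 2 in replicate 2, led by eat-16, an RGS protein (322). Genes of cilia and intraflagellar transport had 10 of 37 (27%, interval 13.8 to 44.1), with 6 in replicate 1 and 15 in replicate 2. Regulators of sensory neuron identity had 11 of 27 (40.7%, interval 22.4 to 61.2), with 10 in replicate 1 and 9 in replicate 2. The transcription factor gene daf-19, which is in both of the last lists, had a pooled signal of 369, with 187 in replicate 1 and 180 in replicate 2. Of the regulators, lin-11 had 127 in the pooled list, unc-86 had 106 and ets-5 had 104. For lin-11 there was no value in replicate 1 and 24.1 in replicate 2, whose list ends at 21.8. The values of unc-86 were 63 and 37.7 and those of ets-5 67.5 and 33.5, and at both genes ncRNA genes also start within 500 bp. Each of the 4 lists had 1 gene with an IDR summit, between 2.7% and 3.7% of its genes, against 4.38% of all protein-coding genes. That gene was daf-19 in both lists that hold it, gcy-33 among the cyclases and eat-16 in transduction. At eat-16 ncRNA genes also start within 500 bp. These lists are small, and their pooled intervals include the background of 29.5%. That of chemosensory transduction also includes the receptor share of 5.64%.

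The 53 matching genes outside the receptor families were a mixture. They include 36 srlf genes (SXP/RAL-2 proteins of nematodes), 6 serpins (srp) and others such as the kinases src-1 and src-2. Also among them are srsy-1 and srsy-2, annotated as G protein-coupled receptors, which had no summit in any list. A pooled summit was found at 8 of the 53 (15.1%, interval 6.75 to 27.6), against 29.5% of all protein-coding genes. An IDR summit was found at 2 (3.77%, interval 0.46 to 13), against 4.38%. One of these is srrt-1, a homolog of Serrate. Among the srlf genes 1 of 36 had a pooled summit, srlf-34 (68.5). Pooled summits were also found at src-1 (41.1), src-2 (63.9) and srap-1 (69.5). The srrt-1 peak had a pooled value of 182, with 87.3 in replicate 1 and 89.3 in replicate 2, and its summit lay 13 bp upstream of srrt-1 and 125 bp upstream of let-504.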

How the data were processed

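Peak lists of 2 biological replicates of 1 group were analysed, as deposited on the ce11 build. Peaks were called against a control, per the file headers, and this control was not analysed here. Which aligner and caller were used, how reads that map to several places were treated and what IDR threshold was set is not given in the sources used here. Peak strength is the authors' deposited signal value, an enrichment measure that was compared within a list. The deposited −log10 q-value of each peak was used to describe peaks and in 1 alternative. Each of the lists of 30000 peaks ends at that number, so its weakest peaks depend on it. The replicates' lists had 0 identical peaks and were taken as separate samples.

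Genes and 5' ends came from Ensembl release 115 (46890 genes on 6 chromosomes). Product and tRNA names came from the RefSeq annotation, matched by WormBase identifier. Summits were assigned with Python 3.11.15 and intervals computed with scipy 1.17.1. The assignment was tested on simulated data. Promoter sequence was read from the genome, as no promoter table was given. No p-value was computed, since 1 group of 2 replicates allows no comparison between groups. Between lists, peaks were paired by overlap, taking the strongest where several overlapped. srtx-1 and sro-1 were counted as receptors. The members and lists were chosen with earlier results of these data known.

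Named are the genes with an IDR summit, the next 10 by pooled signal, the 5 strongest per replicate, 22 receptors known from the literature, their neighbours at the summits and up to 4 genes of each other list. Some genes that this rule or a count covers are not reported here. Other names, such as those of the 53 non-receptors, sre-32 and sre-38, were given after their values were seen. Alternatives changed the window, the position taken for a peak, the 5' end, the rule for shared summits, the list length, the q-value, small RNA neighbours and tandem genes, or left out a replicate.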

Additional observations from a re-analysis of the deposited data

How the results depend on the processing

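Of 74 alternative values for the 6 main results, 52 stayed within the interval of the value reported, and members had a lower share than other protein-coding genes in all of them (0.0839 to 0.382 times). Among all 1364 names, the reported shares were 0.587% (IDR), 6.01% (pooled), 6.45% (replicate 1), 8.94% (replicate 2) and 2.79% (both replicates). A window of 200 bp gave 0.22%, 1.83%, 1.47%, 3.74% and 0.66% in the same order of lists. A window of 1000 bp gave 12.7% pooled, 13.4% in replicate 1, 18.3% in replicate 2 and 6.96% in both. Any overlap of the peak interval with the window gave 9.31%, 9.75%, 13.3% and 4.99%. The stronger 50% of each list gave 2.71%, 2.79%, 3.67% and 1.1%, and peaks with a −log10 q-value of 2 or more gave 0.66%, 0.806%, 0.513% and 0.44%. Leaving out chromosome V, chosen after seeing the data, gave 7.64% pooled. All of these changes but the last enlarge or shrink the window or the list, and other genes shifted with them. The cause of the last was not tested. Without replicate 1, the 2137 strongest peaks of replicate 2 gave 7 members (0.513%), and without replicate 2 those of replicate 1 also gave 7 (0.513%), with shares 0.0998 and 0.127 times those of other genes. Depth is unknown, and receptor sites below the end of a list cannot be seen.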
